A study of Aedes aegypti with 20 samples.

Results

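In the yellow fever mosquito Aedes aegypti, 42 genes of 19804 gene IDs were found in female pedicels and female heads at medians far above those of males. They were chosen as genes with a median of at least 5 CPM (counts scaled to a fixed library total, here the plain total) in female pedicels and in female heads, each at least 16 times the male median of the same tissue after adding 0.1 CPM to both. Of 7329 genes at 5 CPM or more in both female groups, 47 reached 16-fold in both tissues, 6 in the pedicel alone and 9 in the head alone. From the 47, the rule left out 5 by ID (AAEL010235, AAEL010228, AAEL006347, AAEL006424 and AAEL006417), which are used below only as a comparison.

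The pedicel is the antennal segment that houses Johnston's organ, the mosquito's ear. RNA sequencing gave 5 libraries each of female pedicels, male pedicels, female heads and male heads, 20 in all, from the Liverpool strain. Males were virgin, females had not fed on blood, and all had spent 2 days in an incubator before freezing at zeitgeber time 12. Summed estimated counts ran from 5060010 to 9404311 per library. The labels do not state whether replicate libraries were made from different animals, and p-values therefore reflect library-to-library spread that may be technical. A list of 50 head transcripts reached 34.1% to 67.8% of the level in heads for female pedicels, against 4.34% to 36.6% for male pedicels. The list was chosen for the lowest value in any single pedicel library. Low values in some pedicels thus follow from the choice, and the gap between the sexes is only described. In bulk tissue, fewer cells of a type and less RNA per cell cannot be told apart.

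Sex in this species is set by a male-determining locus on otherwise similar sex chromosomes, which acts through sex-specific splicing of doublesex and fruitless. Only females bite, and female salivary glands, which lie outside the head in the thorax, are known for transcripts of blood-feeding proteins that males lack. None of the 42 IDs is paired with a gene name or product here (0 of 19804 IDs matched the RefSeq table), so the members are described by ID, with no function or sequence, and markers of other tissues could not be checked by name. Values below are CPM scaled by TMM (trimmed mean of M-values), unless library totals are named. They are not corrected for transcript length, so a level of one ID is not set against that of another.

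Over the 42 members, the mean level per group had a median of 50.7 CPM in female pedicels, with 7.87 to 2306 CPM between members, and 0.224 CPM in male pedicels. In the heads the median was 37.4 CPM in females, with 4.55 to 216 CPM between members, and 0.0559 CPM in males. Because the rule compared the sexes within each tissue, these differences are a description and carry no test. The median log2 fold of female over male was 7.49 in the pedicel, where the smallest value was 3.70 (AAEL026955) and the greatest 8.99. In the head it was 8.52, between 3.70 (AAEL004301) and 11.50. Over all 11381 genes tested, in which all 42 members were included, the median log2 fold of female over male was 0.02 in the pedicel and -0.03 in the head.

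All 5 female libraries lay above all 5 male libraries for 41 of 42 members in the pedicel, the exception being AAEL028663. The same held for 39 of 42 in the head, where AAEL004301, AAEL012377 and AAEL028663 overlapped between the sexes. Across all genes, 21.2% were called higher in female than in male pedicels and 6.73% higher in female than in male heads. These shares are edgeR calls at an adjusted p under 0.05, a different measure. The share of all genes with every female library above every male library was not computed. Nothing is read from the members' counts against these shares, since the members were selected on the same contrasts.

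**Figure D1:**
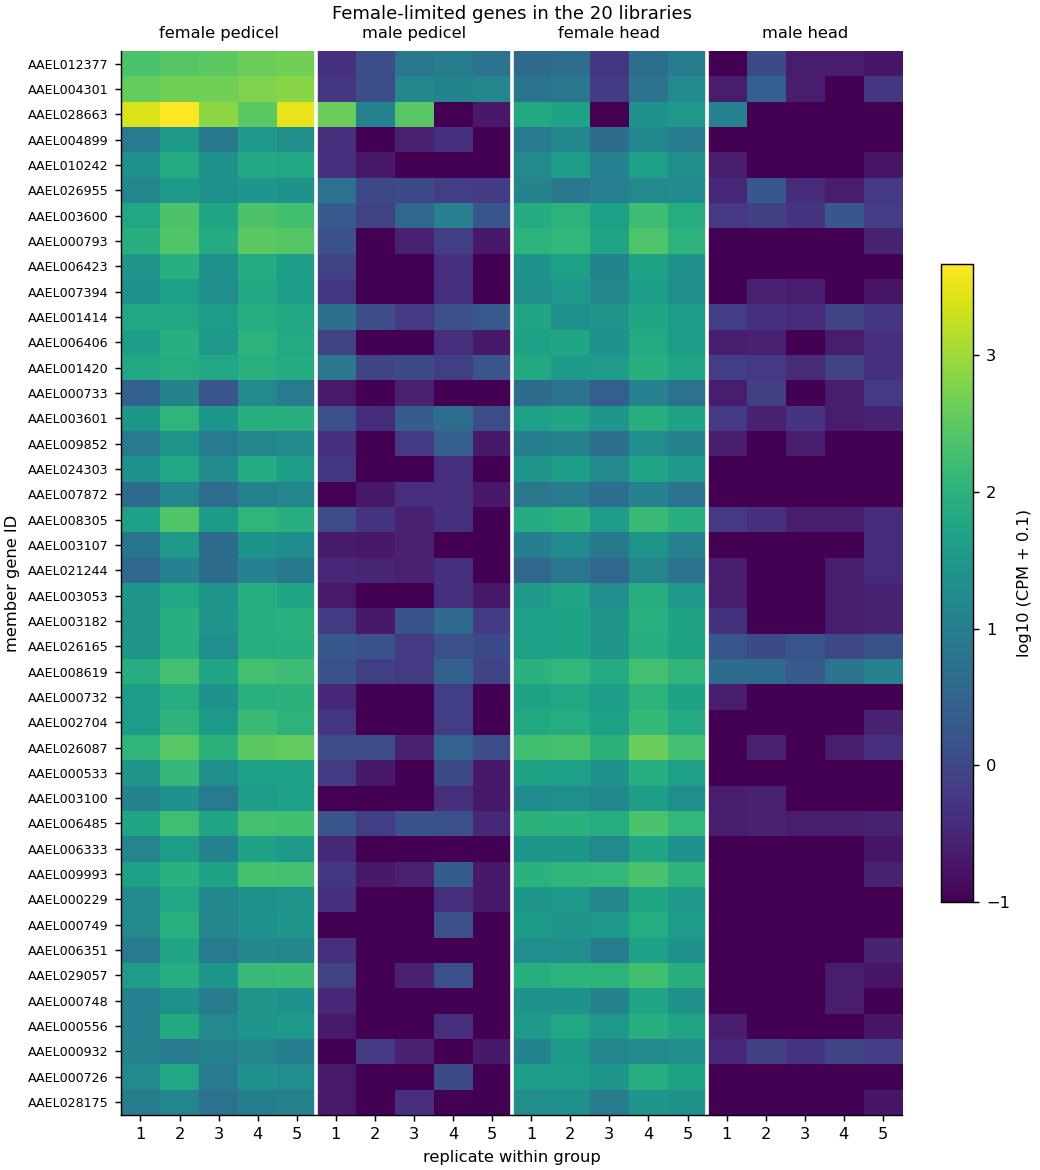
Level of each of the 42 members (rows) in each of the 20 libraries (columns), as log10 of CPM plus 0.1. Female pedicels and female heads are above the males for nearly all rows. The columns of males are low except for AAEL028663 in male pedicels 1 and 3. AAEL012377, AAEL004301 and AAEL028663 are far higher in female pedicels than in female heads.

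Distances to the thresholds are given on library totals, as in the rule. Near the fold threshold, the members with the lowest smaller fold of both tissues were AAEL026955 with 18.1-fold and AAEL009852 with 18.3-fold, both in the pedicel. The nearest genes outside were AAEL001402 with 14.2-fold and AAEL013532 with 14.4-fold. On level, the members nearest the threshold were AAEL012377 with a median of 5.14 CPM and AAEL021244 with 5.59 CPM, the first in female heads and the second in female pedicels. The nearest genes outside had 3.93 CPM in female heads (AAEL008766) and 4.47 CPM in female pedicels (AAEL003057). Scaled by TMM, the female head median of AAEL012377 was 4.65 CPM, under the 5 CPM of the rule.

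AAEL026087 was named for its median pooled over the 10 female libraries, and the 3 pedicel-high genes described below had more CPM in female pedicels. Its level was 115, 280.3, 99.8, 309 and 355 CPM in the 5 female pedicels, beside 179, 208, 102, 403 and 190 CPM in female heads. In males it was 1.17, 1.15, 0.173, 2.87 and 1.24 CPM in pedicels and 0, 0.169, 0, 0.134 and 0.352 CPM in heads. Every female library was thus above every male library, while female pedicels and female heads overlapped over most of their range. AAEL000793, chosen after its values were seen, had 90.0, 252, 75.2, 312 and 271 CPM in the 5 female pedicels, beside 106, 123, 54.2, 241 and 105 CPM in female heads. No male pedicel had more than 1.40 CPM of it and no male head more than 0.176 CPM.

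Apart from AAEL003600 and from AAEL028663, AAEL004301, AAEL012377 and AAEL008619, described below, male levels were low, at most 6.99 CPM (AAEL001420). Many male head values were 0. AAEL003600 had 2.21, 0.73, 3.64, 10.54 and 1.69 CPM in male pedicels, against 56.0 to 236 CPM in female pedicels. In male heads it had at most 1.74 CPM. Of the 42 members, 22, 17, 14, 19 and 29 had counts in male heads 1 to 5. No member was without counts in all 10 male libraries, and 23 of 42 had at least 10 counts over them. In the 5 male heads 8 members had no counts. On library totals, with the male group set to a floor of 3 counts, their female heads are at least 98.5-fold to at least 642-fold higher. This bound covers counting error only. Another 15 members had 1 to 3 counts over the 5 male heads. In the 5 male pedicels no member was without counts and 9 had 1 to 3.

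AAEL008619 was named for its median pooled over the 10 male libraries, which its male heads carry. It had 81.5, 186, 58.3, 193 and 158 CPM in female pedicels, against 1.40, 0.626, 0.520, 2.56 and 0.789 CPM in male pedicels. In female heads it had 100.7, 123, 74.2, 184 and 119 CPM, against 4.41, 4.23, 2.05, 5.89 and 11.96 CPM in male heads. Male heads were above male pedicels except for head 3, which lay below pedicel 4, while both tissues of females overlapped. AAEL026165, named by the same pooled median, had 0.520 to 1.86 CPM over the 10 male libraries, against 19.7 to 84.7 CPM in the 5 female pedicels, beside 28.5 to 89.7 CPM in female heads.

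Female pedicels were then set against female heads, a contrast the rule did not use, although it required 5 CPM in both. AAEL012377, AAEL004301 and AAEL028663 were far higher in the pedicel, while 38 of the other 39 members had an absolute log2 fold under 1. With edgeR's quasi-likelihood test and an adjusted p under 0.05, 5 of 42 members were called, 3 higher and 2 lower in the pedicel. Of all genes tested, 35.4% were called, 18.9% higher and 16.5% lower. The members' median log2 fold was 0.25, beside 0.08 for all genes. The part of the head transcripts held by female pedicels in these folds was not tested.

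This split depends on scaling, as TMM factors of female pedicels were 1.03, 0.82, 0.73, 0.65 and 0.73 and those of female heads 1.11 to 1.14. On library totals 3 members were higher and 5 lower, among 753 higher and 3243 lower genes, with medians of -0.31 for members and -0.43 for all genes. With totals taken without the 20 most abundant genes, 8 members were higher and 0 lower (0 lower also at an unadjusted p under 0.05), among 4244 higher and 307 lower genes, with medians of 0.69 and 0.49. The members' median was 0.12 and 0.20 above that of all genes in these fits and 0.17 above it with TMM. The gap was 0.04 with limma-voom, 0.06 with no filter and 0.08 with a replicate block.

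**Figure D2:**
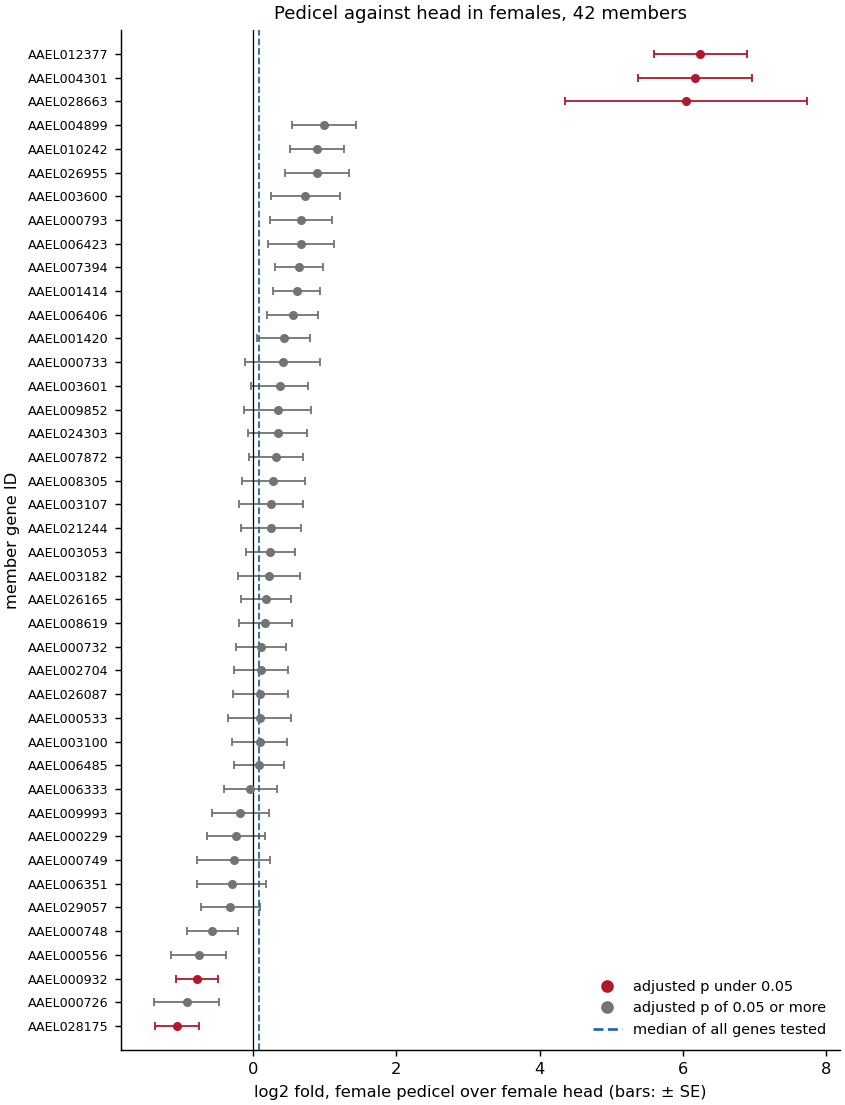
Log2 fold of female pedicel over female head for each of the 42 members, with bars of 1 standard error, called genes in red and the median of all genes tested as a dashed line. AAEL012377, AAEL004301 and AAEL028663 lie between 6.04 and 6.24 and the other 39 members between -1.06 and 0.99.

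AAEL012377 had 226, 279, 317, 415 and 477 CPM in female pedicels (343 ± 102, SD, n = 5), beside 3.78, 4.65, 0.452, 4.80 and 9.06 CPM in the female heads (4.55 ± 3.07, SD, n = 5). The lowest female pedicel was thus far above the highest female head. The log2 fold was 6.24 (SE 0.65, edgeR adjusted p = 5.9e-07). AAEL004301 had 376, 470.1, 482, 583 and 700 CPM in female pedicels (522 ± 123, SD, n = 5), beside 6.19, 7.37, 0.564, 5.97 and 16.3 CPM in female heads (7.28 ± 5.70, SD, n = 5). Again the female pedicels all exceeded the female heads. The fold was 6.17 on the log2 scale (edgeR adjusted p = 1.0e-05, SE 0.80).

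In males the same pair was far below the female pedicels in both tissues. Male pedicels were near female heads, with means of 4.70 and 4.55 CPM for AAEL012377 and 8.53 and 7.28 CPM for AAEL004301. AAEL012377 had 0.349, 1.25, 6.76, 9.26 and 5.86 CPM in male pedicels and 0, 1.02, 0.137, 0.134 and 0.0880 CPM in male heads. AAEL004301 had 0.466, 1.25, 14.4, 12.5 and 14.1 CPM in male pedicels and 0.126, 2.37, 0.137, 0 and 0.440 CPM in male heads. Male pedicels 3, 4 and 5 were the highest males for both. Male pedicel 1 was not clear of the male heads for either gene, and male pedicel 2 was above all male heads for AAEL012377 but not for AAEL004301.

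In females both IDs kept a similar ratio from library to library. The ratio of AAEL004301 to AAEL012377 was 1.40 to 1.68 in the 5 female pedicels, 1.24 to 1.80 in the 5 female heads and 1.00 to 2.40 in the 5 male pedicels. In male heads, where counts were few, it ran from 0 to 5.00 over 4 libraries, and male head 1 had no AAEL012377. It is a ratio of counts with no correction for length. Female head 3 held the lowest and female head 5 the highest level of either gene.

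AAEL028663 was the most variable of the 3. It had 2570, 4674, 738, 314 and 3235 CPM in female pedicels (2306 ± 1801, SD, n = 5), against 420, 10.95, 289, 0 and 0.113 CPM in male pedicels. In female heads it had 69.7, 48.1, 0, 24.5 and 33.6 CPM (35.2 ± 26.0, SD, n = 5), against 11.6, 0, 0, 0 and 0 CPM in male heads. The lowest female pedicel was above every female head, but the highest male pedicel was above the lowest female pedicel. The log2 fold of female pedicel over female head was 6.04 (SE 1.69, edgeR adjusted p = 9.6e-03). Its counts carried fractions in 14 libraries, with no single partner ID that completed them, so the source of its reads is uncertain.

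**Figure D3:**
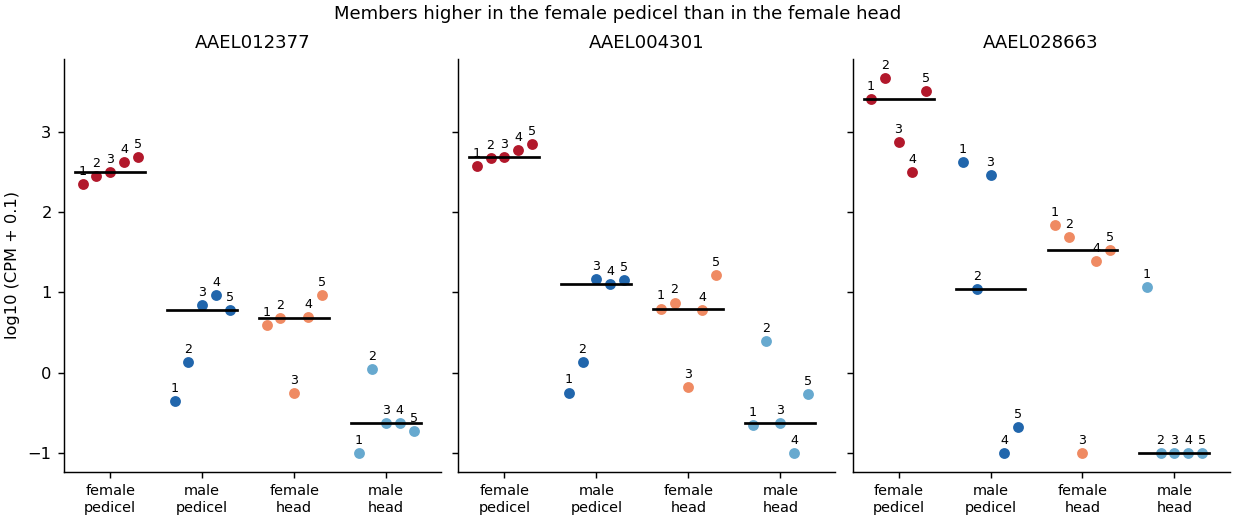
CPM of AAEL012377, AAEL004301 and AAEL028663 in every library by group, as log10 of CPM plus 0.1, with each group's median as a line and replicate numbers above the points. The female pedicels of AAEL012377 (226 to 477 CPM) and AAEL004301 (376 to 700 CPM) are clear of all other libraries, whereas AAEL028663 spreads from 314 to 4674 CPM in the 5 female pedicels, beside up to 420 CPM in male pedicels.

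The head libraries also held other pedicel transcripts at a low level. For 50 genes chosen after the data were seen as most pedicel-enriched, members left out, the level in female heads was 4.94%, 4.96%, 5.04%, 4.58% and 5.16% of the pedicel mean. In percent of each gene's own head mean, the median of the same genes was 95.1%, 91.7%, 86.9%, 94.2% and 99.6% in female heads 1 to 5, with head 3 lowest and head 5 highest. All 3 pedicel-high members were lowest in head 3, and AAEL012377 and AAEL004301 were highest in head 5. The part of other pedicel transcripts in these head values was not tested. Of these 50 genes, 21 had their lowest female head level in head 3 and 13 their highest in head 5. Among 7572 tested genes at 5 CPM or more in both female groups, the shares were 29.95% and 13.17%.

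Lower calls in the female pedicel were small and less stable. AAEL028175 had 9.04, 13.8, 5.56, 10.5 and 11.2 CPM in female pedicels (10.02 ± 3.04, SD, n = 5), beside 20.5, 22.2, 9.14, 28.5 and 24.4 CPM in female heads (20.9 ± 7.23, SD, n = 5). Its log2 fold was -1.06 (SE 0.31, edgeR adjusted p = 1.1e-02). Only female head 3 fell within the range of the female pedicels. AAEL028175 shared reads with another member, AAEL000749, and the mean of their sum was 44.6 ± 34.3 CPM (SD, n = 5) over female pedicels, beside 62.7 ± 26.1 CPM (SD, n = 5) over female heads. For the sum, the log2 fold was -0.49 ± 0.40 (SE, edgeR adjusted p = 0.36).

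AAEL000932 had 12.3, 8.84, 12.3, 14.5 and 10.5 CPM in the 5 female pedicels, beside 12.8, 34.9, 14.6, 17.2 and 20.7 CPM in female heads. The log2 fold was -0.78 (SE 0.29, edgeR adjusted p = 4.5e-02), and the call was lost without female head 2, the highest of them (log2 fold -0.49, adjusted p = 0.19). It was also lost without female pedicel 1, 2, 3 or 5 or female head 4 or 5 (adjusted p 5.3e-02 to 0.10), and in 10 of 21 alternatives in all, over which the adjusted p ran from 3.5e-03 to 0.38. Both genes had female libraries that overlapped between the tissues and were named after their values were seen.

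The 39 members other than the 3 pedicel-high genes had log2 folds from -1.06 to 0.99, with a median of 0.22, 28 positive and 11 negative. Their standard errors were 0.29 to 0.53, so a change under about 1 on the log2 scale was mostly not detectable with these libraries. AAEL026087 stood at 0.10 ± 0.38 (SE, edgeR adjusted p = 0.86), with the sign turning on library totals (-0.47). AAEL008619 stood at 0.17 ± 0.37 (SE, edgeR adjusted p = 0.76), also negative on library totals (-0.38). Counted by libraries, 3 members had all female pedicels above all female heads, 0 had them all below and 39 overlapped. Among 7572 tested genes at 5 CPM or more in both female groups, 8.93% had all pedicels above all heads and 19.3% all below.

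Between male pedicels and male heads, 12 of 42 members were called, 11 higher and 1 lower in the pedicel. Of all genes tested, 51% were called in this contrast, 26.7% higher and 24.3% lower. On library totals 1521 genes were higher and 2448 lower, with 12 members higher and 2 lower, and with totals without the 20 most abundant genes 3602 were higher and 1815 lower, with 12 and 1 members. The members' median log2 fold was 1.99, beside 0.10 for all genes, and male counts were few. The filter ran over all 20 libraries, so members could enter this test through their female counts alone. The calls and the median of the members are therefore only described. The number called higher was 0 with limma-voom (0 also at an unadjusted p under 0.05) and 17 with DESeq2. It was 2 when only the male groups were filtered and fitted. AAEL012377, AAEL001414 and AAEL001420 failed that filter, so the 2 come from fewer members tested. The log2 fold of AAEL012377 was 4.11 ± 0.97 (SE) and that of AAEL004301 3.88 ± 0.99 (SE), with edgeR adjusted p of 1.6e-03 and 3.0e-03. Without male head 2, these were 5.33 and 5.21, and limma-voom gave adjusted p of 0.14 and 0.20.

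AAEL008619 was the 1 member called lower in male pedicels than in male heads, at -2.49 ± 0.55 (SE) on the log2 scale (edgeR adjusted p = 8.9e-04). It was called under every alternative run, with adjusted p from 3.9e-06 to 3.0e-02. The difference between the sexes in this tissue contrast was not tested.

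AAEL001414 and AAEL001420, chosen after their values were seen, were called higher in male pedicels than in male heads, and male pedicel 1 carried much of it. AAEL001414 had 4.89, 1.15, 0.520, 1.28 and 1.92 CPM in male pedicels and 0.273 to 0.803 CPM in male heads. Its log2 fold was 2.01 ± 0.56 (SE, edgeR adjusted p = 5.6e-03). Without male pedicel 1 the fold was 1.30. AAEL001420 had 6.99, 0.834, 1.04, 0.639 and 1.58 CPM in male pedicels and 0.273 to 0.803 CPM in male heads. Its log2 fold was 2.22 ± 0.63 (SE, edgeR adjusted p = 6.4e-03). Without male pedicel 1 it was no longer called (1.08, edgeR adjusted p = 6.4e-02).

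The members shared an order of female libraries. Among female heads, head 4 was the highest and head 3 the lowest for 31 of 42 members (73.8%). The same order held for 656 of the 7572 tested genes at 5 CPM or more in both female groups (8.66%). On library totals the numbers were 32 members and 626 genes (8.27%). Among the 5 genes left out by the rule, 4 had this order.

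Among female pedicels, libraries 1 and 3 were both below 2, 4 and 5 for 38 of 42 members (90.5%), against 653 of the 7572 genes (8.62%). On library totals this held for 32 members (76.2%) and 103 genes (1.36%), and for 5 of 5 left-out genes on either scaling. These orders were noticed in the data, and no test was made of them.

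As a share of each gene's own mean in its group, the median member stood at 49.5%, 138%, 43.1%, 136% and 112% in female pedicels 1 to 5. In female heads it stood at 82.8%, 100.6%, 52.1%, 167% and 91.7%. Left-out genes stood at 50.5%, 131%, 32.3%, 134% and 153% in female pedicels and at 76.0%, 103%, 59.5%, 179% and 86.4% in female heads. All genes at these levels had medians of 97.8% to 101% in every female library.

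**Figure D4:**
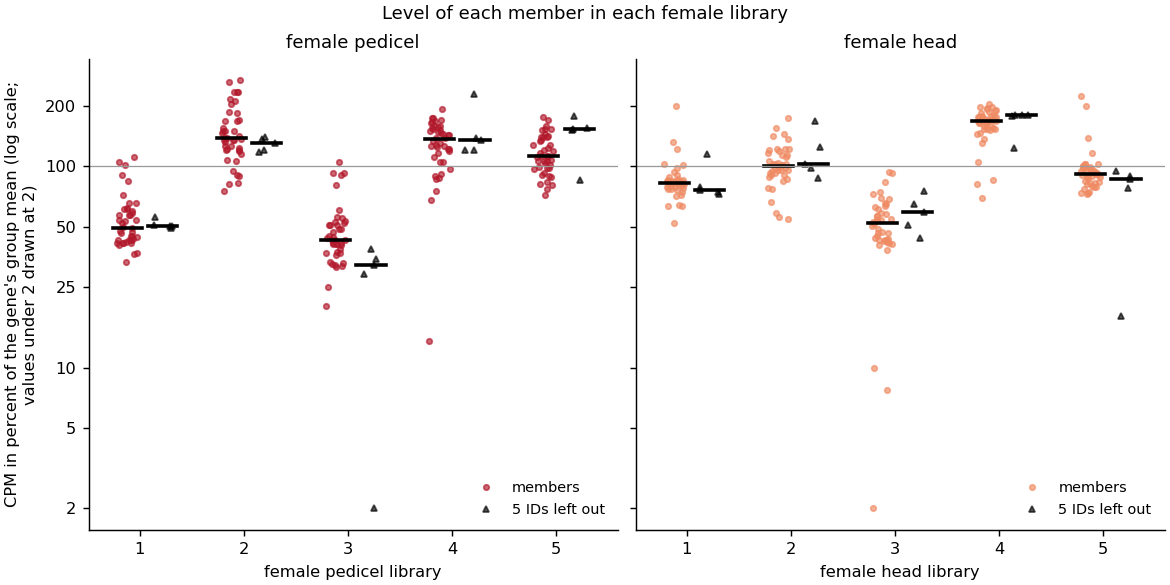
Level of the members in each of the 10 female libraries, in percent of each gene's mean in its group, on a log scale with values under 2 drawn at 2. Points are members and triangles the 5 left-out genes, and the bars are medians. Members and left-out genes are low in female pedicels 1 and 3 and in female head 3 and high in female head 4, where the median member stands at 167%.

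The members varied more between replicates than other genes at these levels, a comparison given without a test. Their highest over lowest library had a median ratio of 4.00 in female pedicels, beside 1.68 for all genes at these levels, and of 3.28 in female heads, beside 1.41. The median coefficient of variation of members was 54.4% in female pedicels and 45.1% in female heads, beside 20.5% and 13.7% for all genes.

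AAEL009993, chosen after its values were seen, is 1 of 11 members outside the head order. It had 47.8, 97.8, 51.8, 204 and 188 CPM in the 5 female pedicels, beside 95.8, 118, 124, 218 and 109 CPM in female heads, so head 4 was highest but head 3 was not lowest. AAEL001414 and AAEL001420 were both lowest in female head 2, with 22.1 and 32.5 CPM there. AAEL001414 had 61.6, 64.1, 36.6, 76.2 and 64.1 CPM in the 5 female pedicels, beside 52.5, 22.1, 27.2, 58.3 and 38.3 CPM in female heads. AAEL001420 had 63.3, 80.1, 59.9, 93.6 and 75.9 CPM in the 5 female pedicels, beside 67.6, 32.5, 38.4, 84.9 and 53.6 CPM in female heads. The other exceptions were AAEL000749, AAEL000932, AAEL026955, AAEL004899, AAEL029057 and the 3 pedicel-high genes.

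The level of 50 head transcripts, in percent of their mean in heads, was 67.7%, 34.1%, 44.4%, 59.2% and 67.8% in female pedicels 1 to 5. In female pedicels 1 and 5, with 67.7% and 67.8%, the median member stood at 49.5% and 112% of its group mean. Transcripts with values identical to those of another gene ID took 6.13%, 10.01%, 24.6%, 26.2% and 21.3% of the counts of female pedicels 1 to 5, and no member has such a transcript. What sets the order was not tested.

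Summed over the 39 members that were not pedicel-high, the level was 1192, 3301, 1019, 3262 and 2902 CPM in the 5 female pedicels, beside 37.7, 9.49, 15.3, 44.4 and 11.8 CPM in male pedicels. The male values are 1.62%, 0.406%, 0.653%, 1.90% and 0.507% of the female pedicel mean. In heads the sum was 1721, 2017, 1193, 3503 and 1849 CPM in females and 10.96, 11.3, 6.15, 12.6 and 19.8 CPM in males. Those male values are 0.533%, 0.551%, 0.299%, 0.612% and 0.962% of the female head mean.

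Male pedicels 1 and 4 had the highest sums of the male pedicels, which rest on 324 and 139 counts. The left-out genes were also highest in these libraries, with 10.3, 0.104, 0.173, 6.07 and 0.902 CPM in male pedicels 1 to 5. Head transcripts stood at 5.58%, 36.6%, 4.34%, 4.77% and 5.64% of their head mean in the same libraries. Male pedicel 2 had the highest of these values and the lowest member sum. What these male counts stem from was not tested.

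**Figure D5:**
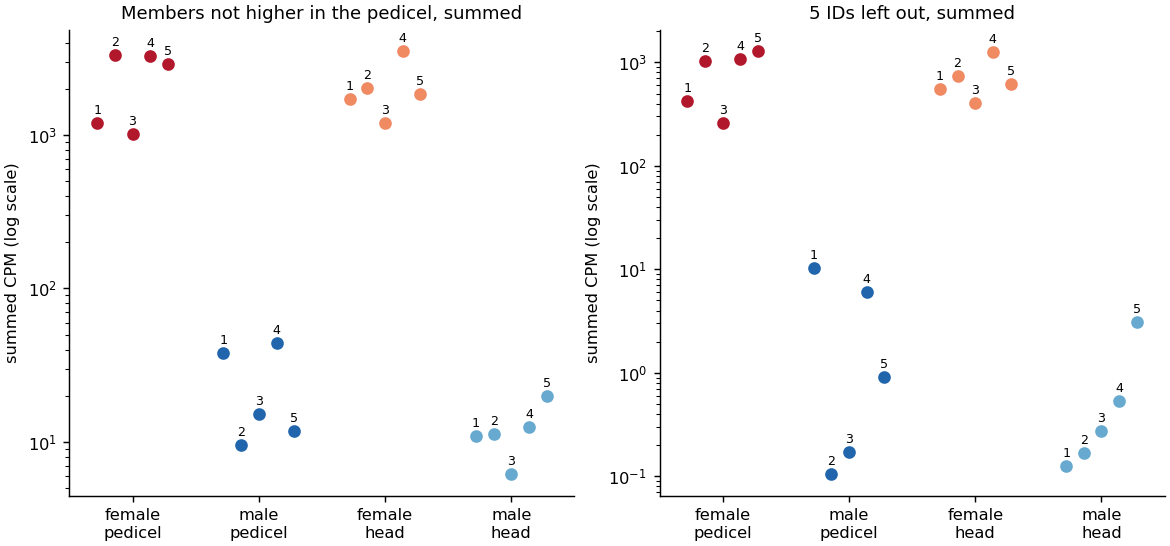
Summed CPM of the 39 members that were not pedicel-high and of the 5 left-out genes in each library, on a log scale. For the 39 members, female pedicels sum to 1019 to 3301 CPM and male pedicels to 9.49 to 44.4 CPM, and female heads to 1193 to 3503 CPM and male heads to 6.15 to 19.8 CPM.

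Reads were shared between some members. Of 42 members, 31 (73.8%) had whole counts in every library to within 0.01, beside 72.4% of all genes tested. Another 3 had fractions in 1 or 2 libraries and 8 in 10 to 14. The sum of AAEL003601 and AAEL007872 was whole in 11 of 11 libraries with fractions, that of AAEL000749 and AAEL028175 in 10 of 10, and that of AAEL026087 and the left-out AAEL006424 in 10 of 10. AAEL001420 was completed in 12 of 12 libraries by AAEL001417, a gene outside the list with 166 counts beside its 4297. For AAEL000748 and AAEL028663 no single partner was found. The values of these IDs are thus uncertain within each pair.

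Of the 42 members, 37 had 1 transcript in the table and 5 had more. The main transcript of AAEL026165 made up 39.9% ± 18.1 of its counts in female pedicels and 58.1% ± 21.1 in female heads (SD, n = 5 each). That of AAEL003100 made up 65.3% ± 19.6 in female pedicels and 51.1% ± 21.1 in female heads. These were the 2 greatest shifts of a main transcript; they are close to or smaller than the SD within a group, and they are given as a description.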

How the data were processed

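Pedicel and head RNA came from a phenol-chloroform extraction, per the labels' protocols. The submitters' processing notes list FastQC, HISAT2 and featureCounts, whose versions, like the build and annotation, were not given in the sources used here. Estimated counts by transcript were deposited by the authors, without scaling and with fractions of unstated origin. These were summed by gene ID and rounded. Of 19804 IDs, 11381 passed edgeR's filterByExpr. A single quasi-likelihood fit over all 20 libraries was made with edgeR 4.0.16 in R 4.3.3 (TMM, a mean per group), with Benjamini-Hochberg adjustment over all genes tested and calls at an adjusted p under 0.05. Totals of 5060010 to 9404311 counts limit low values, and floors cover counting error only.

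The members, lists and tests were chosen with earlier results of these data known. Named in full were the 3 members highest in females, up to 2 rises and 2 falls by tissue (adjusted p under 0.05, at least 10 CPM, no overlap), the 2 highest in males, the 2 highest without male counts (0 qualified), those nearest the threshold and the 2 largest transcript shifts. The 50 head transcripts reached 50 CPM in every head and differed by under 0.5 (log2) between female and male heads. Of such genes, they had the lowest value in any single pedicel library, relative to the mean in heads. Alternatives were other scalings (RLE, library totals, totals without the 20 most abundant genes), filters, fits of only the groups compared, DESeq2 1.42.0, limma-voom (limma 3.58.1), each library left out, an adjusted p under 0.01 and other thresholds of the rule. Alternatives chosen after seeing the data were summing ID pairs that share reads and leaving out pedicels with over 20% identical-copy counts. Scripts were tested on simulated data.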

Additional observations from a re-analysis of the deposited data

Results flagged for a closer look

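Dixon's criterion was applied to 44 groups of 5 libraries, for single members and for the summed members that were not pedicel-high. It flagged a library far from the others in 5 groups. Its chance rate of about 1 group in 20 assumes normal values and does not hold for few counts, so 5 is not read as an excess. All 5 lie in males, in groups that held from 1 count (AAEL028175) to 92 counts (AAEL028663). Male head 2 stood above the other male heads with 2.37 CPM of AAEL004301 and 1.02 CPM of AAEL012377. Male head 1 was alone in holding AAEL028663, with 11.6 CPM. Male head 5 was alone in holding AAEL028175, with 0.0880 CPM from 1 count. The criterion always flags a library that alone holds counts, as for AAEL028663 and AAEL028175. Male pedicel 1 stood above the other male pedicels with 6.99 CPM of AAEL001420.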

How the results depend on the processing

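Male heads held 45 to 225 counts per library over the 39 members that were not pedicel-high, so male values rest on few counts. For female pedicel against female head, 3 members were called higher and 2 lower. Those called higher numbered 6 with a replicate block, 8 with totals without the 20 most abundant genes, 6 with limma-voom and 3 to 4 with 1 library left out. Those called lower numbered 5 on library totals, 4 with limma-voom, 1 with pairs summed, 1 to 3 with 1 library left out (1 without female pedicel 1, 3 or 5 or female head 2, 4 or 5), and 0 with totals without the 20 most abundant genes (0 at an unadjusted p under 0.05), at an edgeR adjusted p under 0.01 (2 unadjusted) and without pedicels over 20% copies (4 unadjusted). All genes called numbered 4028, and 2484 at an adjusted p under 0.01. For male pedicel against male head, 11 were called higher. Alternatives gave 5 at an adjusted p under 0.01, 0 with limma-voom, 17 with DESeq2 and 6 without pedicels over 20% copies. With 1 library left out the number was 8 to 12. It was 2 with only the groups compared, where the filter was run anew and dropped AAEL012377, AAEL001414 and AAEL001420. The 1 called lower became 2 on library totals and 1 to 2 with 1 library left out (2 without male pedicel 2 or male head 1). Whether replicate numbers pair the samples was not settled: same-number correlations ran from -0.02 to 0.34 in females and 0.01 to 0.32 in males. For 1 of 5 female and 2 of 5 male numbers, the pedicel and head libraries each correlated best with the other. The block gave 6 higher and 3 lower members in females, 11 and 1 in males. The log2 fold of AAEL026087 turned to -0.47 on library totals, to -0.14 without pedicels over 20% copies and to between -0.11 and 0.44 with 1 library left out. That of AAEL008619 turned to -0.38 on library totals and ran from -0.02 to 0.37 with 1 library left out. Other settings of the rule gave 31 to 50 members. The causes were not tested.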
